A study of Mus musculus with 50 samples.

Results

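The genes named Ube2, the E2 enzymes that carry ubiquitin and related proteins, and those named Usp or Otud, which encode deubiquitinases, were followed in hippocampal microglia of early-life stress (ELS) exposed and control (CTR) mice. Members were taken by symbol (Ube2, Usp followed by a digit, or Otud, leaving out the interferon-induced protease gene Usp18 and pseudogenes named as such), which gave 105 of the 53700 genes counted: 38 E2 enzymes, 62 deubiquitinases, 3 RNAs from an opposite strand and 2 proteins of another kind. Of these, 84 passed the filter on low counts (at least 1 CPM, a gene's count scaled to the reads of the mouse, in 3 mice): 32 E2 enzymes, 49 deubiquitinases, 2 proteins of another kind and 1 RNA. The 19 members of the 2 enzyme classes that did not pass include Ube2v1, Otud3, Usp44 and the Usp17l genes, and 5 of them had no read in any mouse. Microglia were sorted as living CD11b+ CD45-intermediate cells from both hippocampi of male C57BL/6J mice, and their mRNA was sequenced. ELS meant limited bedding and nesting material from postnatal day (P) 2 to P9, and CTR mice had standard material. Mice were taken at P9 without injection (P9-CTR, 12 mice, and P9-ELS, 13 mice) or at P200, 3 h after an injection of saline (P200-CTR-PBS, 7 mice, and P200-ELS-PBS, 6 mice) or of lipopolysaccharide at 1 mg/kg (P200-CTR-LPS, 7 mice, and P200-ELS-LPS, 5 mice). Myelin was removed with Percoll at P200 but not at P9.

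Ubiquitin is activated by an E1 enzyme, handed to an E2 enzyme and placed on a substrate with the help of an E3 ligase. The E2 enzyme helps to set which kind of chain is built, and some E2 enzymes carry SUMO, NEDD8 or ISG15 in place of ubiquitin. Deubiquitinases remove or trim these chains, recycle ubiquitin at the proteasome, and act on histones, receptors and signalling complexes. In microglia, ubiquitin chains are known as part of the signalling from Toll-like receptors, which sense lipopolysaccharide, to NF-kB, and as the mark for protein turnover.

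Depth ranged from 5152838 to 42231258 counted reads per mouse with a median of 19960409, and 3 libraries had fewer than 16000 genes with a read (mice P9_19.2_ELS, P9_19.3_ELS and P200_1.1_CTR_PBS, named here by their labels). The 8 microglia markers summed to a mean of 43700 CPM in P9-CTR, 47200 in P9-ELS, 74200 in P200-CTR-PBS, 73200 in P200-ELS-PBS, 65300 in P200-CTR-LPS and 68000 in P200-ELS-LPS, with none of the 8 at 0 in any group. The 6 monocyte and neutrophil markers summed to 1.12 to 6.59 CPM on group average, with Ly6g and Retnlg at 0 in every group. The 6 oligodendrocyte markers summed to 31.4 to 55.7 CPM and the 4 endothelial markers to 34.8 to 52.9 CPM. In bulk RNA, fewer cells of a type and less RNA per cell cannot be told apart.

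Among E2 enzymes, Ube2j1, which works in protein disposal at the endoplasmic reticulum, had the highest level per length in P200-CTR-PBS, with a mean of 65.9 CPM per kb of exon. It was followed by Ube2g2, of the same process, at 35.0 CPM per kb, by Ube2n, which builds lysine 63 chains, at 22.4, and by Ube2l3 at 20.7. Among deubiquitinases the highest levels per kb were those of Usp2 at 35.6, Usp22 at 23.5, Usp8 at 22.6, Usp21 at 16.2 and Usp5 at 13.9. In P9-CTR the order of deubiquitinases was another: Usp8 had 27.3, Usp5 24.7, Usp22 24.0 and Usp2 20.8 CPM per kb. The mitotic E2 enzyme Ube2c reached 20.0 CPM per kb in P9-CTR, next to Ube2n at 24.4. Exons of several members overlap those of other genes (23.5% of the exon length of Ube2l3 with Ydjc, 27.2% of that of Usp14 with Thoc1, and a smaller part of Ube2s with Rpl28), and whether reads were counted by strand is not given in the sources used here.

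**Figure D1:**
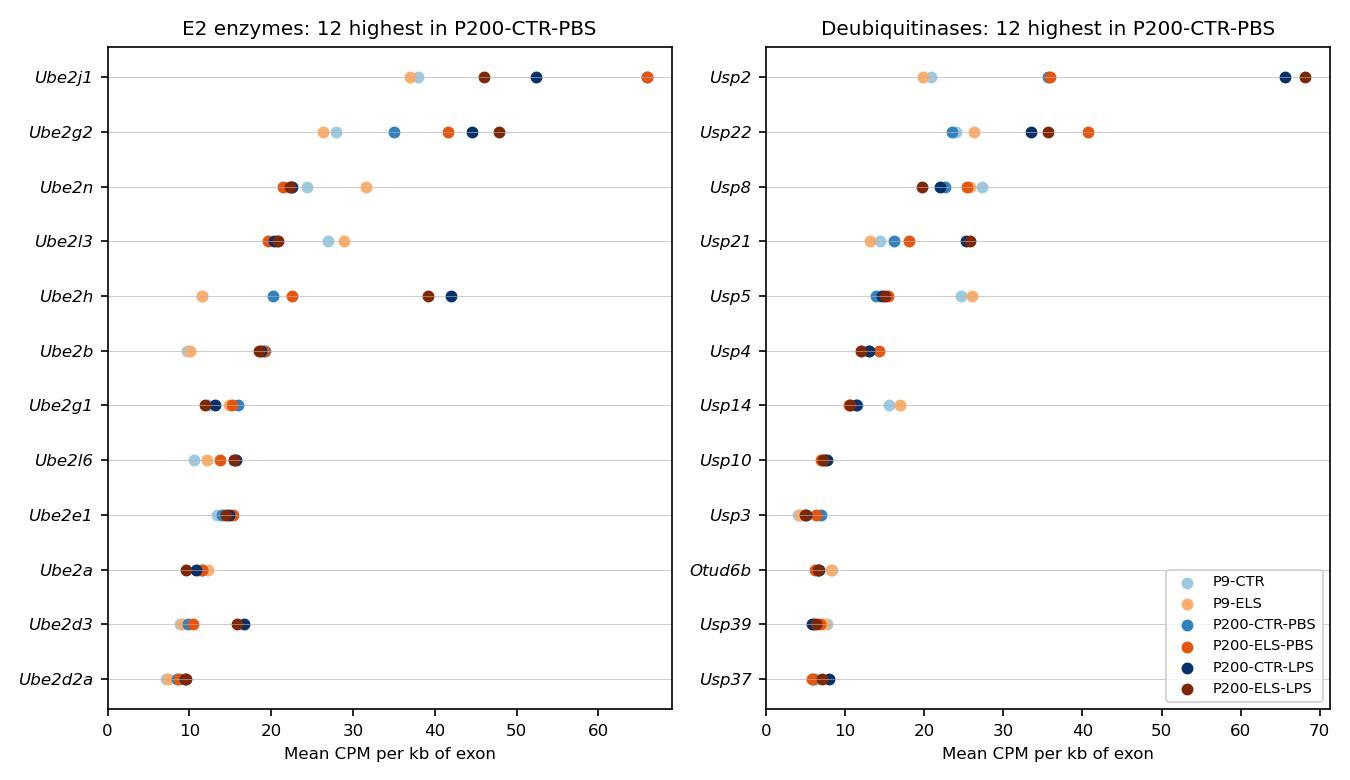
Mean CPM per kb of exon (linear horizontal axis from 0) of the 12 E2 enzymes and the 12 deubiquitinases with the highest level in P200-CTR-PBS, with 1 point for each of the 6 groups. Ube2j1 lies highest among E2 enzymes, at 65.9 in P200-CTR-PBS, and Usp2 lies highest among deubiquitinases, at 35.6 in P200-CTR-PBS and 65.6 in P200-CTR-LPS.

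Among members with a mean level of at least 1 on the log2 CPM scale, the largest falls from P9 to P200 were those of Ube2c, the E2 enzyme of the anaphase-promoting complex, and of Ube2t, which places ubiquitin in the Fanconi DNA repair pathway. Usp1, which removes that ubiquitin, had the largest fall among deubiquitinases of such a level. In CTR mice Ube2c was 137-fold lower and Ube2t 35.0-fold lower in adults, and Usp1 was 2.70-fold lower. Their upstream stretches are shown because a CCAAT box, a short element bound by the factor NF-Y, is common in promoters of cell cycle genes. The 200 bases that end 51 bases before the annotated start site are printed 5′ to 3′ along each gene's strand (GENCODE start site of the canonical transcript, GRCm39), with CCAAT, or its reverse complement ATTGG, in capitals: Ube2c at chr2:164611568-164611767 (+ strand), Ube2t at chr1:134890045-134890244 (+ strand) and Usp1 at chr4:98811658-98811857 (+ strand).
Ube2c: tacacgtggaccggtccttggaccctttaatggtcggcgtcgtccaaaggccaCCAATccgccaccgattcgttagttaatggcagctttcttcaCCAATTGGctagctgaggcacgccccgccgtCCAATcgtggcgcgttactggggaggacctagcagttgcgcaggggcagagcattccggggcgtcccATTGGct
Ube2t: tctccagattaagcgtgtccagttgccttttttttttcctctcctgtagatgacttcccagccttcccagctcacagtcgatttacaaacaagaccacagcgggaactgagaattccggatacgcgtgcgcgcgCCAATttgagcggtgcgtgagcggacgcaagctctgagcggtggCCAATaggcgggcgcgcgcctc
Usp1: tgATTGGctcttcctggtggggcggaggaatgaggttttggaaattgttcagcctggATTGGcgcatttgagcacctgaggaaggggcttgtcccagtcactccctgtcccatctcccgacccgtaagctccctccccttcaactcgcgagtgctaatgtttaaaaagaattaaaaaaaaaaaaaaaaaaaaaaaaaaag
The stretch of Ube2c held 5 such matches, of which 2 overlap in the run CCAATTGG, and those of Ube2t and Usp1 held 2 each. Over the full window of 250 bases before to 50 after the start site, Ube2c had 6 matches and Ube2t 3, as had Usp5 and Usp42, the latter not called for age in either condition, and 3.84% of the 21770 promoter windows in all had at least 3. At least 1 match was found in 39.9% of all windows, in 31.2% of the 32 tested E2 enzymes and in 28.6% of the 49 tested deubiquitinases. The letters TTTGAA, searched on both strands as a cell cycle element, were found in 3718 of all 21770 windows, in 6 of the 32 tested E2 enzymes and in 4 of the 49 tested deubiquitinases. A match of letters is a description and not a binding site.

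The comparison of P200 (PBS) with P9 within each condition asks how these enzymes differ between young and adult microglia. A member is said to have risen or fallen where edgeR's quasi-likelihood test gave a Benjamini-Hochberg adjusted p under 0.05 over all 16696 genes tested and the log2 fold change (logFC) was beyond 0.1. In CTR mice, 16 of 32 E2 enzymes passed (50.0%), of which 8 fell (25.0%), and 14 of 49 deubiquitinases passed (28.6%), of which 11 fell (22.4%). Of all genes tested, 44.1% passed and 26.6% fell. In ELS mice, 15 E2 enzymes passed (46.9%), of which 8 fell (25.0%), and 18 deubiquitinases passed (36.7%), of which 11 fell (22.4%), where 42.2% of all genes passed and 25% fell. With a logFC beyond 1, 3 E2 enzymes (9.38%) and 4 deubiquitinases (8.16%) passed in CTR mice, against 26.4% of all genes. In ELS mice 4 E2 enzymes (12.5%) and 4 deubiquitinases (8.16%) passed that rule, against 26.2% of all genes. The median logFC was -0.04 for E2 enzymes and -0.08 for deubiquitinases in CTR mice, and -0.09 for all genes. In ELS mice these medians were -0.12, -0.04 and -0.01.

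Ube2c was at 37.8, 65.4 and 85.4 CPM (lowest, median and highest mouse) in P9-CTR and at 48.9, 65.2 and 116 CPM in P9-ELS. In adults given PBS it was at 0, 0.355 and 1.02 CPM in CTR and at 0.463, 0.951 and 2.77 CPM in ELS. Every adult mouse was below every P9 mouse of its condition. The logFC was -7.10 ± 0.57 (SE, adjusted p = 9.07e-15) in CTR and -5.95 ± 0.57 (adjusted p = 2.19e-12) in ELS. Ube2t behaved likewise: it was at 12.6, 17 and 26.8 CPM in P9-CTR and at 0, 0.376 and 1.63 CPM in P200-CTR-PBS. Its range was 9.5 to 49.9 CPM in P9-ELS and 0.141 to 1.77 CPM in P200-ELS-PBS, so the ages did not overlap in either condition. The logFC of Ube2t was -5.13 ± 0.58 (adjusted p = 2.64e-10) in CTR and -4.43 ± 0.59 (adjusted p = 1.74e-08) in ELS.

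Ube2s, which extends the chains that Ube2c starts, changed far less and lay at low levels, with 0.865, 3.59 and 5.6 CPM in P9-CTR and 0.778, 1.84 and 4.17 CPM in P200-CTR-PBS. The ages overlapped, and its call in CTR (logFC -0.77 ± 0.32, adjusted p = 0.0485) was lost in 16 of the 25 fits that left out 1 adult mouse. In ELS the logFC was -0.76 ± 0.34 (adjusted p = 0.0671).

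Usp1 was at 8.81, 12.5 and 17.8 CPM in P9-CTR, and at 1.73, 3.59 and 9.12 CPM in P200-CTR-PBS, with 1 adult mouse inside the P9 range. In P9-ELS it was at 1.43, 12.5 and 61.4 CPM, where the lowest and the highest value are those of P9_19.3_ELS and P9_19.2_ELS, whose libraries held few genes, and in P200-ELS-PBS it was at 1.78, 2.77 and 3.98 CPM. The logFC was -1.43 ± 0.38 (adjusted p = 0.00194) in CTR and -2.43 ± 0.43 (adjusted p = 7.03e-06, 5.38-fold lower) in ELS. Without the 3 libraries with few detected genes, the logFC of Usp1 was -1.29 in CTR and -2.11 in ELS, and those of Ube2c were -6.88 and -5.87. The 8 proliferation markers, none of them a member, moved with these 3 genes: all 8 fell in both conditions, with a median logFC of -6.56 in CTR and -6.44 in ELS. Their summed level was 708 to 1380 CPM in P9-CTR and 5.09 to 18.5 CPM in P200-CTR-PBS, and 938 to 2450 CPM in P9-ELS and 9.23 to 24.9 CPM in P200-ELS-PBS. Their part in the change of the members was not tested.

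**Figure D2:**
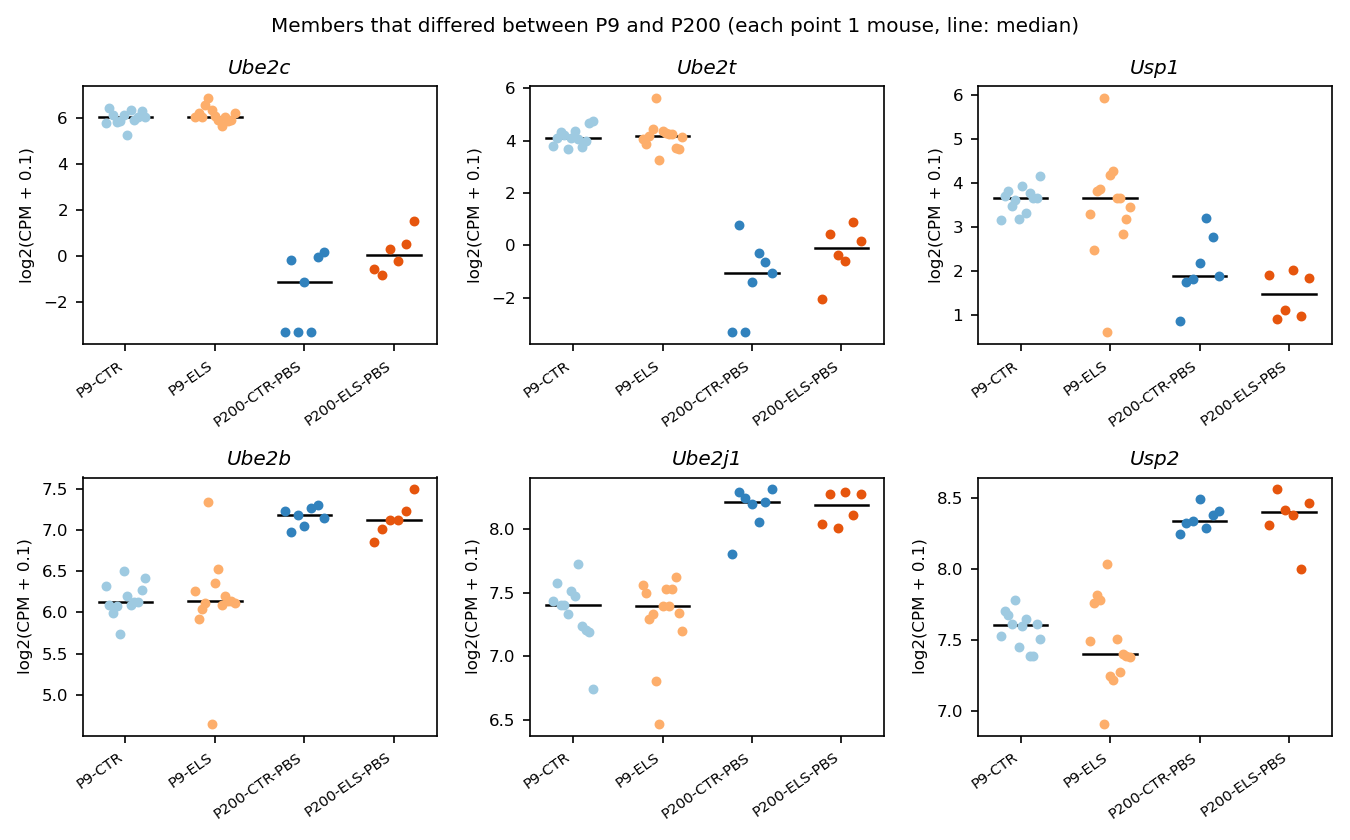
Level of 6 members in each P9 mouse and each P200 mouse given PBS, as log2(CPM + 0.1) on the vertical axis, with 1 point for each mouse and a group on each horizontal position. Ube2c and Ube2t lie lower in every adult mouse than in any P9 mouse of the same condition, and Ube2j1 lies higher.

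Other deubiquitinases also fell with age. Of 8 tested members listed under DNA repair and cell cycle, 5 fell in CTR mice and 4 in ELS mice, and none rose. Of all genes tested, 26.6% fell in CTR and 25% in ELS, and nothing is read from so short a list. Usp28, which acts in the DNA damage checkpoint, was at 20.5, 32.8 and 43.4 CPM in P9-CTR and at 11.7, 13.5 and 18 CPM in P200-CTR-PBS, without overlap. Its logFC was -1.13 ± 0.23 (adjusted p = 5.28e-05) in CTR and -0.70 ± 0.23 (adjusted p = 0.0124) in ELS, where the adjusted p was 0.0603 without mouse P200_17.2_ELS_PBS and 0.051 with only the groups compared in the fit. Usp47 and Usp7 fell in both conditions, by 0.73 and 0.42 on the log2 scale in CTR and by 0.60 and 0.67 in ELS.

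All 3 members listed under the proteasome and free chains fell in both conditions by the test, the call of Usp5 in ELS not under every fit. With 26.6% of all genes falling in CTR and 25% in ELS, a list of 3 is too short to read anything from. Usp5, which takes apart unanchored ubiquitin chains, was at 79.6, 121 and 162 CPM in P9-CTR and at 62, 68.5 and 80.2 CPM in P200-CTR-PBS, so that the ranges only touched. The logFC of Usp5 was -0.83 ± 0.22 (adjusted p = 0.00216) in CTR and -0.76 ± 0.23 (adjusted p = 0.00724) in ELS. The 13 P9-ELS mice carry the numbers of 4 nests, and with the nest as a random effect in limma voom Usp5 was not called in ELS (logFC -0.52, adjusted p = 0.16), nor with only the groups compared (adjusted p = 0.0629). Usp14, a deubiquitinase bound to the proteasome, fell by 0.44 ± 0.14 (adjusted p = 0.0093) in CTR and by 0.69 ± 0.15 (adjusted p = 0.000183) in ELS on the log2 scale. The third, Usp13, was barely detected: P9-ELS mice had 22 reads in 5 of 13 mice and P200-ELS-PBS mice had none, at least 4.87-fold lower if a group at 0 is set to 3 reads over the group. Usp29 fell in ELS from 310 reads in 10 of 13 P9 mice to none in adults, at least 45.4-fold lower by the same limit.

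Usp9x, which acts on endocytosed receptors, fell in both conditions (logFC -0.70 in CTR and -0.57 in ELS), the only 1 of 7 tested members listed under endosome and receptor traffic to do so. Nothing is read from this short list either, where 26.6% of all genes fell in CTR and 25% in ELS. Usp53, whose enzyme activity has been in doubt, fell in CTR with a logFC of -1.38 ± 0.50 (adjusted p = 0.0223). That call was lost without mouse P200_1.1_CTR_PBS, P200_5.2_CTR_PBS or P200_15.1_CTR_PBS, with adjusted p from 0.0523 to 0.0554. In ELS its logFC was -0.69 (adjusted p = 0.281). Otud5, listed under innate and NF-kB signalling, fell in CTR (logFC -0.82 ± 0.32, adjusted p = 0.0344) and had a logFC of 0.13 in ELS. Otud6b and Usp34 passed in ELS just under the threshold (logFC -0.42, adjusted p = 0.0471, and logFC -0.44, adjusted p = 0.0498), and in CTR they had a logFC of -0.33 and -0.05.

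Several E2 enzymes of general use fell by less than 2-fold. Ube2l3, which serves ligases of the parkin and LUBAC kind, fell by 0.39 ± 0.08 in CTR and by 0.56 ± 0.09 in ELS on the log2 scale. Ube2k, a builder of lysine 48 chains, fell by 0.39 and 0.62 and Ube2e3 by 0.43 and 0.42. Ube2n fell in ELS alone by the test (logFC -0.56 ± 0.18, adjusted p = 0.0106), with -0.12 in CTR (adjusted p = 0.59), and with only the groups compared the call in ELS was lost (adjusted p = 0.0798). The difference between the 2 logFC of Ube2n was -0.44 with an adjusted p of 0.553, so no difference between conditions was shown.

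Other members rose with age, and the highest expressed E2 enzyme was among them. Ube2j1 was at 107, 169 and 211 CPM in P9-CTR and at 224, 297 and 318 CPM in P200-CTR-PBS, and at 88.5 to 197 CPM in P9-ELS and 258 to 313 CPM in P200-ELS-PBS. The ages did not overlap in either condition, with a logFC of 0.80 ± 0.12 (adjusted p = 3.22e-07) in CTR and 0.83 ± 0.12 (adjusted p = 2.33e-07) in ELS. Ube2h, the partner of the CTLH ligase, lay between 54.2 and 83.8 CPM in P9-CTR and between 114 and 141 CPM in P200-CTR-PBS, and rose (logFC 0.82 ± 0.13 in CTR and 0.96 ± 0.13 in ELS). Ube2b, which ubiquitinates histones and the replication clamp, was at 53, 69.8 and 90.8 CPM in P9-CTR and at 126, 145 and 158 CPM in P200-CTR-PBS.

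The logFC of Ube2b was 1.00 ± 0.15 (adjusted p = 3.38e-07) in CTR and 0.91 ± 0.15 (adjusted p = 3.66e-06) in ELS. Ube2q2 rose 2.16-fold in CTR and 2.83-fold in ELS, from a median of 5.18 CPM in P9-CTR to 14 CPM in P200-CTR-PBS. In P200-ELS-PBS, mouse P200_20.2_ELS_PBS had 27.5 CPM and the next 11. With 1 adult mouse left out in turn, the logFC of Ube2q2 in ELS ranged from 1.08 to 1.64, and the call stayed. Ube2w, which attaches ubiquitin to the amino end of proteins, rose by a logFC of 0.80 in CTR and 0.51 in ELS. Ube2l6, the E2 enzyme of ISG15, was at 24.4, 28.9 and 40.4 CPM in P9-CTR and at 37, 43.5 and 52.7 CPM in P200-CTR-PBS. Its logFC was 0.54 ± 0.15 (adjusted p = 0.00252) in CTR and 0.18 ± 0.15 (adjusted p = 0.371) in ELS, and the difference of -0.36 did not pass the test (adjusted p = 0.584).

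Among deubiquitinases, Usp2, which is known to act on cyclin D1 and on clock proteins, rose with age and had the highest level of its class in adults. It was at 167, 195 and 220 CPM in P9-CTR and at 304, 324 and 361 CPM in P200-CTR-PBS, without overlap, and at 120, 169 and 262 CPM in P9-ELS and 256, 337 and 378 CPM in P200-ELS-PBS. The logFC of Usp2 was 0.78 ± 0.11 (adjusted p = 3.74e-08) in CTR and 0.86 ± 0.11 (adjusted p = 5.62e-09) in ELS. Usp3, a histone H2A deubiquitinase, rose by 0.77 ± 0.19 in CTR and 0.57 ± 0.20 in ELS. Usp50, at low level, rose by 0.94 and 0.90, and neither call was firm. In CTR it was lost with no filter on low counts (adjusted p = 0.0554) and without mouse P200_1.1_CTR_PBS (adjusted p = 0.0962) or P200_18.2_CTR_PBS (adjusted p = 0.0831). In ELS it was lost without the mice with few detected genes (adjusted p = 0.0642), with no filter (adjusted p = 0.0879), with only the groups compared (adjusted p = 0.107) and in 4 of 25 fits without 1 mouse (adjusted p up to 0.133).

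The 2 conditions shared 6 E2 enzymes that rose (Ube2b, Ube2d2a, Ube2h, Ube2j1, Ube2q2 and Ube2w), 6 that fell (among them Ube2c, Ube2e3, Ube2k, Ube2l3 and Ube2t), 3 deubiquitinases that rose (Usp2, Usp3 and Usp50) and 8 that fell (Usp1, Usp5, Usp7, Usp9x, Usp13, Usp14, Usp28 and Usp47). No member had a called difference between the age changes of ELS and CTR mice by edgeR, DESeq2 or limma voom, and 0.0299% of all genes had one by edgeR. At an unadjusted p under 0.05, 2 of 32 E2 enzymes and 3 of 49 deubiquitinases differed, and no excess over all genes is read from these counts. Usp22, the deubiquitinase of the SAGA chromatin complex, had a logFC of -0.03 in CTR and 0.63 ± 0.20 (adjusted p = 0.00794) in ELS, with a difference of 0.66 (95% interval 0.10 to 1.23, adjusted p = 0.411). For Usp1 the difference was -0.99 (95% interval -2.05 to 0.06), and for Ube2c it was 1.15 (95% interval -0.14 to 2.45). Adults came from another cohort than P9 mice and differed from them in the injection and in the Percoll step as well. None of these can be told apart from age. Neuron markers summed to 132 CPM in P9-CTR and 7.02 CPM in P200-CTR-PBS (6 of 6 fell in CTR and 5 of 6 in ELS) and border macrophage markers to 722 and 7.01 CPM, of which Mrc1 made 711 in P9-CTR. Astrocyte markers went apart with age in ELS: Slc1a3 rose (logFC 1.91), while Gfap, Gja1, Aqp4, Aldh1l1 and Slc1a2 fell (logFC -8.21 to -4.52). The part of these cells in the changes of the members was not tested.

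**Figure D3:**
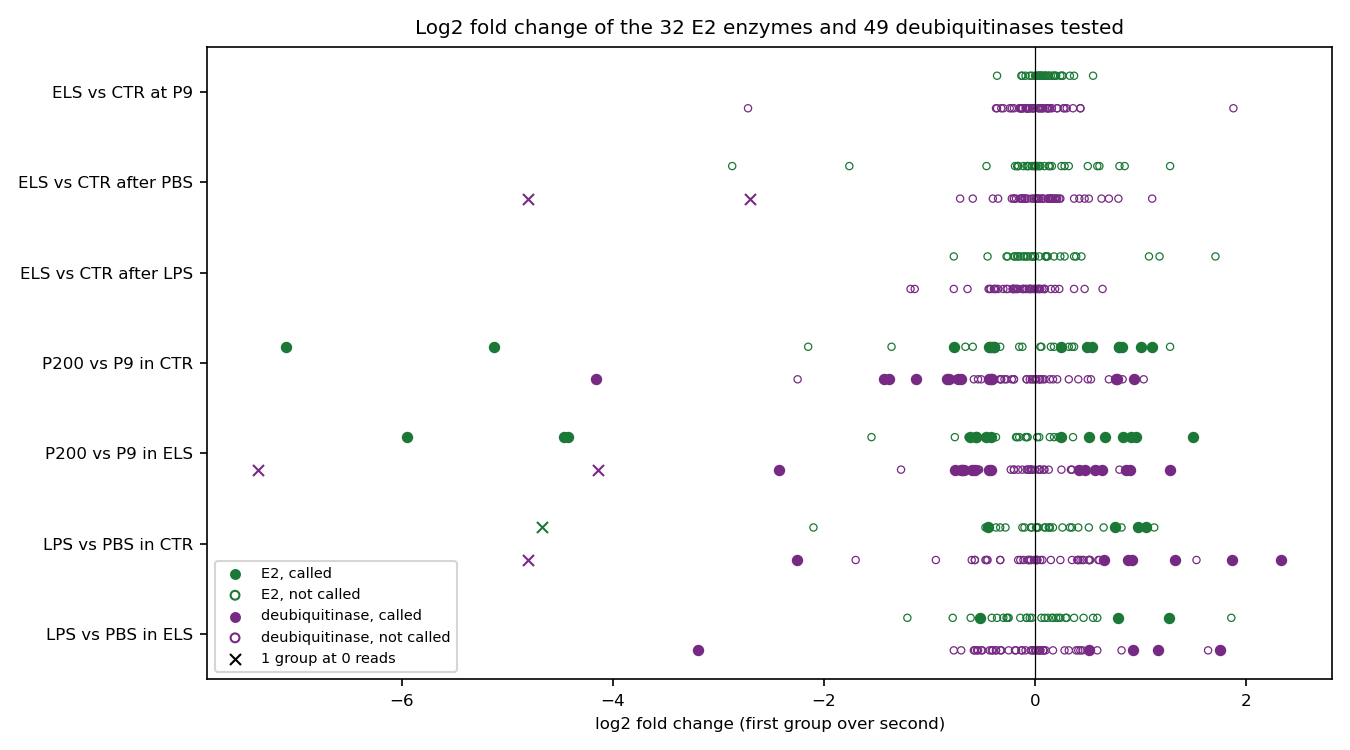
The logFC of the 32 tested E2 enzymes and 49 tested deubiquitinases in 7 comparisons, with 1 point for each gene, filled points for genes that passed the test and crosses for genes with a group at 0 reads. In CTR mice, 16 E2 enzymes and 14 deubiquitinases passed for age, and 5 and 8 for lipopolysaccharide, while none passed in the 3 comparisons of ELS with CTR.

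The comparison of LPS with PBS in adults asks how the enzymes respond 3 h after an inflammatory stimulus. In CTR mice 3 of 32 E2 enzymes rose (9.38%) and 2 fell (6.25%), where 8.73% of all genes tested rose and 6.2% fell. Of 49 deubiquitinases 6 rose (12.2%) and 2 fell (4.08%). In ELS mice 2 E2 enzymes rose (6.25%) and 1 fell (3.12%), and 4 deubiquitinases rose (8.16%) and 1 fell (2.04%), where 7.4% of all genes rose and 4.94% fell. With a logFC beyond 1, 2 E2 enzymes and 5 deubiquitinases passed in CTR mice (9.62% of all genes), and 1 and 3 in ELS mice (7.86% of all genes). The median logFC in CTR was 0.09 for E2 enzymes, 0.02 for deubiquitinases and 0.0 for all genes, and in ELS 0.07, -0.02 and -0.04.

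Among deubiquitinases called in both conditions, the largest rises were those of Usp36 and Usp16, which are known for work on nucleolar proteins and on histone H2A. Their upstream stretches are printed for contrast with those above, after the same search: Usp36 at chr11:118181137-118181336 (- strand) and Usp16 at chr16:87251341-87251540 (+ strand) (GENCODE start site of the canonical transcript, GRCm39). Neither holds any of the letter runs searched, on either strand, so no letters are in capitals: these were the CCAAT box, TTTGAA and an interferon element (GAAA repeated after a gap of 2 bases).
Usp36: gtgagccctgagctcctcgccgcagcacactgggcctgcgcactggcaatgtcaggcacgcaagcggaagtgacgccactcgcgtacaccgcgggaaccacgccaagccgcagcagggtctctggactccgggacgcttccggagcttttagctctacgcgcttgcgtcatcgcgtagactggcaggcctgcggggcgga
Usp16: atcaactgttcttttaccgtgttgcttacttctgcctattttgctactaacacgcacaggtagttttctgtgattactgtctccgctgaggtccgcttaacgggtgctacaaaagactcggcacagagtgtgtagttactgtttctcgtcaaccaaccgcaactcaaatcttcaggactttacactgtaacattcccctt
The interferon element letters were in 3.84% of all promoter windows, in 0 of the 32 tested E2 enzymes and in 2 of the 49 tested deubiquitinases (4.08%), Otud4 and Usp49. No match says only that these letters are not in this window.

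Usp36 was at 8.2, 14 and 23.4 CPM in P200-CTR-PBS and at 31, 52.9 and 106 CPM in P200-CTR-LPS. In ELS mice it was at 13.5, 18 and 25.3 CPM after PBS, and the 5 mice given LPS had 78.4, 48.3, 51, 70.2 and 61 CPM. Every mouse given LPS was above every mouse given PBS, and the logFC was 1.87 ± 0.26 (adjusted p = 1.25e-07, 3.66-fold) in CTR and 1.75 ± 0.28 (adjusted p = 6.23e-06, 3.37-fold) in ELS. Usp16 was at 9.92, 20.9 and 25.3 CPM in P200-CTR-PBS and at 40.9, 48.9 and 62.2 CPM in P200-CTR-LPS. In ELS it was at 17, 19.7 and 27.5 CPM after PBS, and at 43.4, 38.3, 42.8, 42.5 and 70 CPM in the 5 mice given LPS. Again the treatments did not overlap, with a logFC of 1.33 ± 0.25 (adjusted p = 8.4e-05) in CTR and 1.17 ± 0.28 (adjusted p = 0.0026) in ELS.

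Usp21, which removes ubiquitin from histone H2A and from RIPK1, rose by 0.65 ± 0.14 (adjusted p = 0.000375) in CTR and by 0.51 ± 0.15 (adjusted p = 0.0188) in ELS on the log2 scale. In ELS this call was lost without mouse P200_2.2_ELS_LPS (adjusted p = 0.105) or mouse P200_17.2_ELS_PBS (adjusted p = 0.0553). With it, 3 of 7 tested deubiquitinases listed under chromatin and transcription rose in both conditions, where 8.73% of all genes rose in CTR and 7.4% in ELS, and nothing is read from so short a list. Usp22, of the same list, was not called, with a logFC of 0.51 (95% interval 0.07 to 0.95) in CTR and -0.19 (95% interval -0.69 to 0.31) in ELS.

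Of the 10 tested deubiquitinases listed under innate and NF-kB signalling, 2 rose and 1 fell in CTR, and 1 rose and 1 fell in ELS. Of all genes, 8.73% rose and 6.2% fell in CTR, and 7.4% and 4.94% in ELS, and nothing is read from this short list. Usp2 was at 517, 608 and 734 CPM in P200-CTR-LPS, where the highest mouse given PBS had 361 CPM. In ELS the 5 mice given LPS had 660, 568, 846, 589 and 467 CPM, all above the 378 CPM of the highest mouse given PBS. The logFC of Usp2 was 0.88 ± 0.12 (adjusted p = 1.64e-07) in CTR and 0.93 ± 0.14 (adjusted p = 9.71e-07) in ELS.

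Usp38, which is known to limit interferon induction through the kinase TBK1, was at 27.2, 39.2 and 55 CPM in P200-CTR-PBS and at 45.7, 83.1 and 101 CPM in P200-CTR-LPS, with some overlap. It rose in CTR (logFC 0.92 ± 0.19, adjusted p = 0.000282) and did not pass the test in ELS, where mice had 31.3 to 61 CPM after PBS and 67.8, 66, 37, 80.7 and 95.6 CPM after LPS. Usp53 rose 5.01-fold in CTR (logFC 2.33 ± 0.56, adjusted p = 0.00193), from 0.0713, 0.687 and 2.38 CPM to 2.11, 5.8 and 9.66 CPM. In ELS its range was 1.2 to 4.22 CPM after PBS and its logFC was 0.82 ± 0.60 (adjusted p = 0.43). The difference between the conditions for Usp53 was -1.51 (95% interval -3.13 to 0.12, adjusted p = 0.88).

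Otud1, which cuts lysine 63 chains and is known to dampen innate signalling, had the largest fall among deubiquitinases other than the scarcely counted Usp29. In ELS it was at 2.85, 5.02 and 7.88 CPM after PBS, and the 5 mice given LPS had 0.443, 0.761, 0.68, 0.769 and 0 CPM, below every mouse given PBS. In CTR it was at 0.254, 5.88 and 10.1 CPM after PBS and at 0.0974, 0.858 and 2.66 CPM after LPS. The mouse with 0.254 CPM is P200_1.1_CTR_PBS, the library with few detected genes, and the other 6 mice given PBS were above all mice given LPS. The logFC of Otud1 was -2.26 ± 0.60 (adjusted p = 0.00541, 4.77-fold lower) in CTR and -3.19 ± 0.73 (adjusted p = 0.00143, 9.15-fold lower) in ELS. With the mouse number as a replicate block the call in CTR was lost (logFC -2.29, adjusted p = 0.11). Without mouse P200_1.1_CTR_PBS and the other libraries with few genes, the logFC of Otud1 in CTR was -2.47. The other deubiquitinase that fell in CTR, Usp29, had 29 reads in 3 of 7 mice given PBS and none after LPS, at least 7.77-fold lower.

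**Figure D4:**
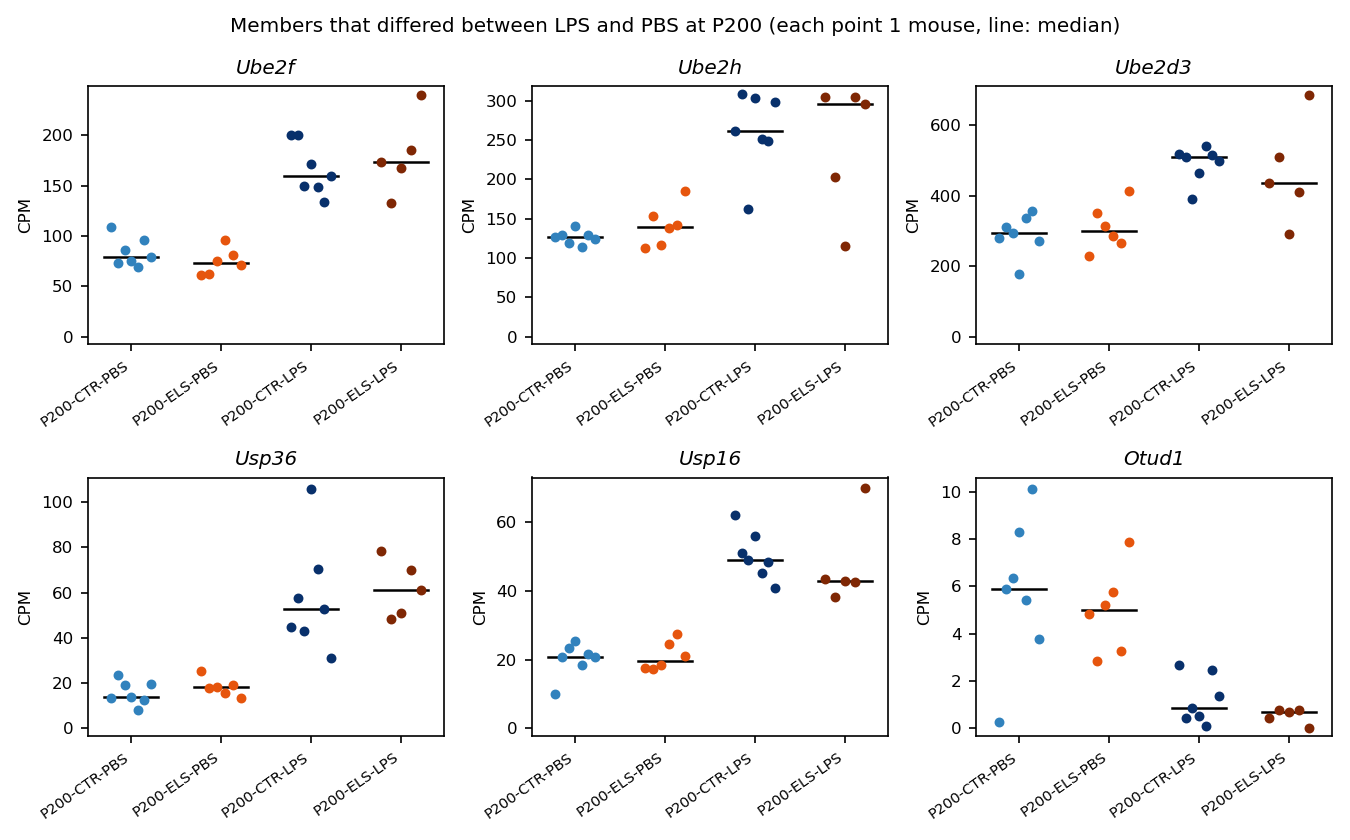
CPM (linear vertical axis) of 6 members in each P200 mouse, with 1 point for each mouse and a group on each horizontal position. Ube2f, Usp36 and Usp16 lie higher in every mouse given LPS than in any mouse of the same condition given PBS, and Otud1 lies lower in every P200-ELS-LPS mouse than in any P200-ELS-PBS mouse.

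Among E2 enzymes, Ube2f, which passes NEDD8 to cullin ligases, was at 69, 79.4 and 109 CPM in P200-CTR-PBS and at 134, 160 and 200 CPM in P200-CTR-LPS. In ELS it was at 61.8, 73.5 and 95.8 CPM after PBS and at 173, 133, 168, 185 and 240 CPM in the 5 mice given LPS. The treatments did not overlap in either condition, with a logFC of 0.98 ± 0.17 (adjusted p = 1.2e-05) in CTR and 1.27 ± 0.19 (adjusted p = 1.03e-06) in ELS. The other E2 enzyme of NEDD8, Ube2m, was not called, with a logFC of -0.47 in CTR and -0.78 (95% interval -1.50 to -0.07, adjusted p = 0.156) in ELS. Ube2l6 for ISG15 and Ube2z for FAT10 were not called either.

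Ube2h was at 163, 261 and 309 CPM in P200-CTR-LPS, above the 114 to 141 CPM of mice given PBS. In ELS it was at 113, 140 and 185 CPM after PBS, and the mice given LPS had 305, 203, 116, 305 and 296 CPM, of which 4 of 5 were above all mice given PBS. The logFC of Ube2h was 1.05 ± 0.15 (adjusted p = 3.16e-07) in CTR and 0.79 ± 0.17 (adjusted p = 0.00052) in ELS. Ube2d3, an E2 enzyme that works with many ligases, was at 179, 295 and 356 CPM in P200-CTR-PBS and at 390, 509 and 541 CPM in P200-CTR-LPS, without overlap (logFC 0.76 ± 0.23, adjusted p = 0.0174). In ELS the logFC of Ube2d3 was 0.59 (95% interval 0.07 to 1.11, adjusted p = 0.135), with 229 to 412 CPM after PBS and 435, 508, 292, 411 and 685 CPM after LPS.

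Ube2j1, which rose with age, fell after LPS in ELS mice, from 258 to 313 CPM to 205, 209, 114, 238 and 238 CPM, without overlap. Its logFC was -0.52 ± 0.16 (adjusted p = 0.0199) in ELS and -0.33 (95% interval -0.61 to -0.05, adjusted p = 0.101) in CTR, and the call in ELS was lost without mouse P200_11.2_ELS_LPS (logFC -0.37, adjusted p = 0.106), with no filter on low counts (adjusted p = 0.0776) and with only the groups compared (adjusted p = 0.0527). Ube2e3 fell in CTR by 0.45 ± 0.14 (adjusted p = 0.0237) on the log2 scale, and this call was lost without mouse P200_1.1_CTR_PBS, P200_1.3_CTR_LPS or P200_8.2_CTR_LPS, with adjusted p from 0.053 to 0.0927, with no filter on low counts (adjusted p = 0.0762) and with the mouse number as a replicate block (adjusted p = 0.0943). The other E2 enzyme that fell in CTR, Ube2ql1, had 25 reads in 2 of 7 mice given PBS and none after LPS, at least 7.1-fold lower.

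Members often named with inflammation were among those not called. Ube2n, the E2 enzyme of lysine 63 chains in Toll-like receptor signalling, had a logFC of 0.01 (95% interval -0.37 to 0.40) in CTR and 0.06 (95% interval -0.38 to 0.50) in ELS. Ube2l6 had 0.02 (95% interval -0.32 to 0.36) in CTR and 0.16 (95% interval -0.22 to 0.55) in ELS. The 8 interferon response markers summed to 37.1 CPM in P200-CTR-PBS and 506 CPM in P200-CTR-LPS, of which the chemokine gene Cxcl10 made 449, and 2 of 8 rose in CTR (Cxcl10 and Oasl1) and 4 of 8 in ELS. Usp14 had -0.01 (95% interval -0.33 to 0.31) in CTR and 0.01 (95% interval -0.35 to 0.36) in ELS. Otud7b and Usp25, both listed under innate and NF-kB signalling, had a logFC of 0.02 and -0.60 in CTR and -0.18 and 0.03 in ELS.

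Summed over all members, the E2 enzymes made 1870 to 2240 CPM in P200-CTR-PBS and 2210 to 2640 CPM in P200-CTR-LPS, and the deubiquitinases 1770 to 2170 and 2410 to 2940 CPM. In ELS mice the sums of the E2 enzymes were 1830 to 2470 CPM after PBS and 1940 to 2860 CPM after LPS, and those of the deubiquitinases 2140 to 2280 and 2220 to 2680 CPM. The 6 astrocyte markers summed to 299 to 503 CPM in P200-CTR-PBS and 483 to 613 CPM in P200-CTR-LPS, and to 314 to 454 and 418 to 584 CPM in ELS. Of these, 1 of 6 rose in CTR and 2 of 6 in ELS, and none was at 0. In each adult group, however, 3 or 4 of the 6 had a mean under 1 CPM. Their sums rest largely on Slc1a3, with a mean log2 CPM of 8.13 over all mice, where the next, Gfap, had 4.25. The part of the astrocyte markers in the response was not tested. The sums over members are set largely by the most abundant members such as Usp2 and Ube2d3, and no test was run on them. No member had a called difference of the LPS response between ELS and CTR by edgeR, DESeq2 or limma voom, as for all genes by edgeR (0%). At an unadjusted p under 0.05, 1 E2 enzyme and 1 deubiquitinase differed, the latter Usp22 with -0.70 (95% interval -1.37 to -0.04, adjusted p = 0.806). No excess over all genes is read from these counts.

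The comparison of ELS with CTR mice asks whether the enzymes differ after early stress, at once, in adulthood and after a second challenge. No E2 enzyme and no deubiquitinase was called by edgeR's quasi-likelihood test in any of the 3 comparisons, where 0% of all genes were called at P9, 0.168% (28 genes) after PBS and 0% after LPS. At an unadjusted p under 0.05, 1 of 32 E2 enzymes and 2 of 49 deubiquitinases differed at P9, 5 and 2 after PBS, and 2 and 0 after LPS. The share of all genes at this unadjusted p is not set beside these counts, so no excess is read from them. DESeq2 and limma voom called 0 members as well, and edgeR's likelihood-ratio test called 2 deubiquitinases after PBS (Usp22, adjusted p = 0.0468, and the scarcely counted Usp29, adjusted p = 0.0353). The adult mice given PBS serve both here and in the comparisons of age and of LPS.

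Usp22 had the smallest adjusted p of its class after PBS. It was at 44.2, 126 and 153 CPM in P200-CTR-PBS and at 157, 216 and 231 CPM in P200-ELS-PBS, so that every ELS mouse was above every CTR mouse. The logFC was 0.79 (95% interval 0.33 to 1.25, adjusted p = 0.115). After LPS the ranges overlapped, with 108 to 243 CPM in CTR and 103 to 210 CPM in ELS. Ube2j2, the other E2 enzyme of its kind at the endoplasmic reticulum beside Ube2j1, was at 7.45, 10.8 and 13.4 CPM in P200-CTR-PBS and at 11.7, 14.5 and 28.5 CPM in P200-ELS-PBS (logFC 0.59, 95% interval 0.20 to 0.99, adjusted p = 0.192). The highest of these, mouse P200_20.2_ELS_PBS, stood apart from the next at 16.4 CPM. With 1 adult mouse left out in turn, the logFC ranged from 0.36 to 0.67 (edgeR adjusted p up to 0.598). After LPS, Ube2j2 had a logFC of 0.44 (95% interval 0.02 to 0.85).

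Ube2d1 was at 7.59 to 25.6 CPM in P200-CTR-PBS and at 16.6 to 31.7 CPM in P200-ELS-PBS (logFC 0.85, 95% interval 0.20 to 1.49, adjusted p = 0.286). Ube2c differed by 1.28 (95% interval 0.15 to 2.41) after PBS and by 1.18 (95% interval 0.05 to 2.32) after LPS, at levels under 3 CPM in every adult mouse. The smallest adjusted p of an E2 enzyme at P9 was that of Ube2n at 0.888 (logFC 0.37, 95% interval 0.08 to 0.66), where the highest and the lowest P9-ELS mouse, with 370 and 52.7 CPM, were P9_19.2_ELS and P9_19.3_ELS. Otud1 after LPS had a logFC of -1.14 (95% interval -2.51 to 0.22).

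How small a change the data could show differed between the comparisons. The 95% interval lay within a 2-fold change for 29 of 32 E2 enzymes and 42 of 49 deubiquitinases at P9, for 24 and 32 after PBS, and for 23 and 36 after LPS. For the remaining members the interval reached beyond a 2-fold change. These intervals take each mouse as a replicate, without a term for the nest, whereas the study assigned ELS to whole litters. At P9 the 13 ELS mice carry 4 nest numbers and the 12 CTR mice 5. The intervals may therefore be too narrow as statements about ELS. The median logFC of E2 enzymes, deubiquitinases and all genes was 0.09, -0.03 and 0.0 at P9, 0.02, 0.04 and 0.01 after PBS, and -0.02, -0.11 and -0.01 after LPS.

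**Figure D5:**
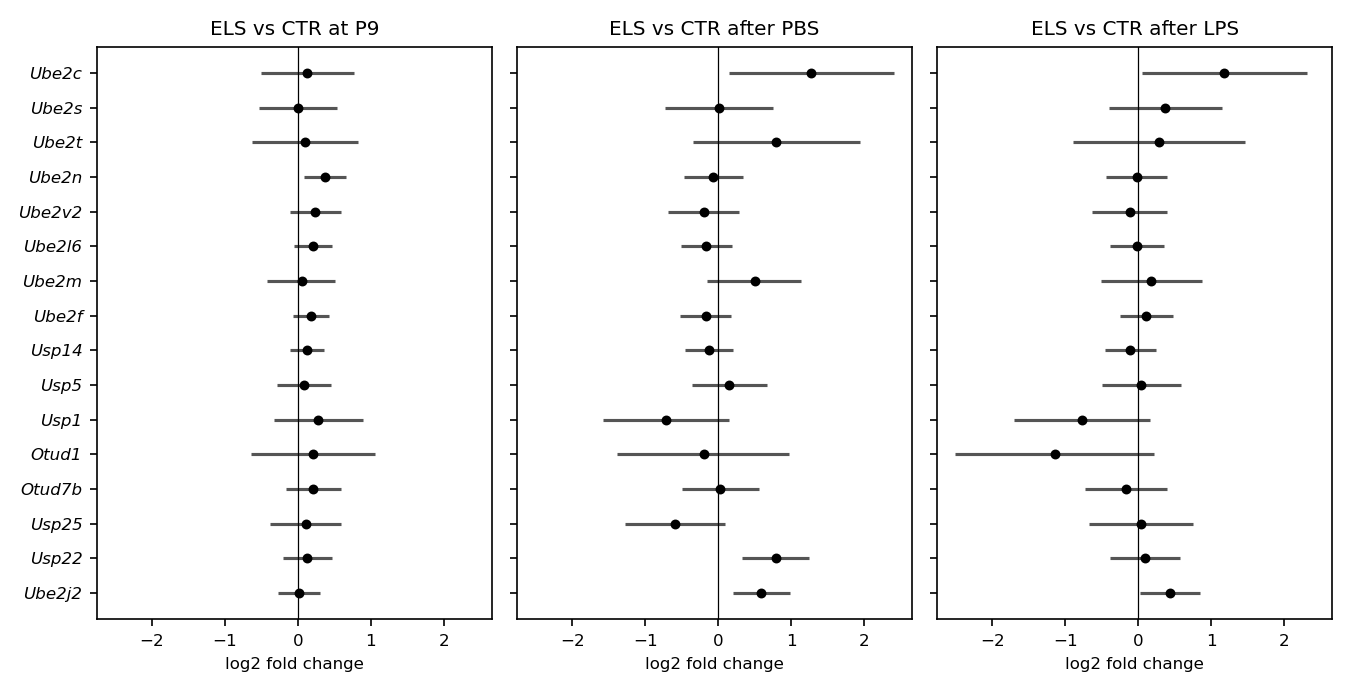
The logFC of ELS against CTR (horizontal axis) with its 95% interval for 16 members at P9, after PBS and after LPS, with 1 row for each gene. Usp22 after PBS lies farthest above 0 relative to its interval, at 0.79 (0.33 to 1.25), and none of the members shown passed the test.

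The other genes of the pathway (ubiquitin genes, E1 enzymes, E2 enzymes of other names and deubiquitinases of other families, 41 tested) were counted from a fixed list. With age, 10 rose and 10 fell in CTR (48.8% passed, against 44.1% of all genes) and 11 rose and 11 fell in ELS (53.7%, against 42.2%), and in the 3 comparisons of ELS with CTR none was called. Uchl1, a deubiquitinase abundant in neurons, had the largest fall (logFC -4.96 in CTR and -3.23 in ELS), together with the fall of neuron markers given above. Of the ubiquitin genes, Rps27a fell (logFC -0.98 in CTR and -1.61 in ELS). The E1 enzymes went apart in CTR, where Uba1 for ubiquitin and Sae1 for SUMO fell by 0.75 and 1.13 on the log2 scale and Uba3 and Nae1 for NEDD8 rose by 0.64 and 0.83. In ELS Uba1 and Sae1 fell by 0.53 and 1.40, while Uba3 (logFC 0.06, adjusted p = 0.819) and Nae1 (logFC 0.24, adjusted p = 0.352) were not called. Of the 41 genes, 0 had a called difference of the age change between ELS and CTR, so no difference between conditions was shown. Uba7, the E1 enzyme of ISG15, rose 1.45-fold in CTR and 2.30-fold in ELS. After LPS 2 of 41 rose (4.88%) and 1 fell (2.44%) in each condition, less than the 8.73% and 6.2% of all genes in CTR and the 7.4% and 4.94% in ELS. Tnfaip3, the gene of the NF-kB inhibitor A20, rose with a logFC of 3.57 ± 0.47 (adjusted p = 4.12e-08) in CTR and 3.60 ± 0.51 (adjusted p = 4.08e-07) in ELS, and Stambpl1 fell by 0.50 and 0.79 on the log2 scale.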

How the data were processed

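The deposited files hold raw counts of reads per gene for each of 50 mice. Per the labels and the study's methods, the authors trimmed the reads with cutadapt 2.10 after bcl2fastq 2.20, aligned them to GRCm39 with STAR and counted unique reads within exons with HTSeq 0.11.0. The release of the annotation and the strand setting are not given in the sources used here, and reads that could belong to near-identical copies such as the Ube2d genes were not counted.

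Genes with at least 1 CPM in 3 mice were tested (16696). Counts were scaled by the trimmed mean of M-values, and 1 model of the 6 group means over all mice was fitted with edgeR 4.0.16 (R 4.3.3) and its quasi-likelihood test, with Benjamini-Hochberg adjustment over all genes tested. A gene was called where the adjusted p was below 0.05 and the log2 fold change exceeded 0.1 in size, or 1 under a stricter rule. The study's methods give both thresholds. CPM values are on the scaled library sizes, intervals are 95% intervals of the fitted logFC, and a group at 0 was set to 3 reads for a bound. Alternatives were edgeR's likelihood-ratio test, DESeq2 1.42.0, limma 3.58.1 voom, other scalings and filters, only the groups compared, and leaving out mice. Exon lengths, exon overlaps and start sites were taken from the GENCODE annotation of GRCm39. Tables were made with Python 3.11.15, and the fits were tested on simulated data.

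The members and all gene lists were chosen with earlier results of these data known. For each comparison and class, the text names up to 4 called members per direction with the largest logFC and a mean log2 CPM of at least 1, the smallest p where none was called, and members of fixed roles (among them Ube2c, Ube2s, Ube2t, Ube2f, Ube2m, Ube2n, Ube2l6, Usp1, Usp5, Usp14, Otud1, Otud7b and Usp25). A few genes are not reported here. Members named beside these were chosen after their values were seen. Mouse labels share a number before the point across treatments (5 CTR and 5 ELS numbers at P200), read here as a nest. Deviations of mice with the same number and other treatment correlated by -0.0411 to 0.0841, so the numbers were not taken to pair the mice. Ube2d4 and Ube2nl, members by name, are annotated as processed pseudogenes. At the depth of these libraries (5152838 to 42231258 reads) a gene at 1 CPM rests on few reads, and its values are uncertain accordingly.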

Additional observations from a re-analysis of the deposited data

Results flagged for a closer look

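Values were looked at for 1 mouse far from the rest of its group in the 30 named members that were called and in the 4 adult groups, 120 groups in all, and 13 stood out. Chance would flag about 1 in 20 such groups, but the groups are not independent, since the same adult mice serve for every gene. No excess over chance is read from the 13 that stood out. Mouse P200_1.1_CTR_PBS, whose library had few detected genes, gave 3 of them. It was the highest of its group for Usp3 (109 CPM, next 66.8) and Ube2e3 (40.4 CPM, next 29), and the lowest for Usp35 (0.102 CPM, next 7.1).

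Mouse P200_20.2_ELS_PBS was the highest for Ube2j2 (28.5 CPM, next 16.4), Ube2q2 (27.5 CPM, next 11) and Ube2e3 (42.9 CPM, next 30.1). Mouse P200_11.2_ELS_LPS was the lowest for Ube2j1 (114 CPM, next 205) and Usp22 (103 CPM, next 181). Mouse P200_20.1_ELS_LPS was the highest for Usp16 (70 CPM, next 43.4), and mouse P200_2.2_ELS_LPS was the lowest for Ube2j2 (10.7 CPM, next 19.6). The remaining values were mouse P200_17.2_ELS_PBS for Ube2s (4.79 CPM, next 2.28), mouse P200_18.1_CTR_PBS for Usp14 (146 CPM, next 107), each the highest, and mouse P200_5.3_CTR_LPS for Ube2h (163 CPM, next 249), the lowest. Why these mice stood apart was not tested.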

How the results depend on the processing

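No named member changed direction under any alternative in the comparisons for which it was named. The direction of the other members and of the lists was not checked. Of the counts of called members, these moved by more than 1.5 times. With a log2 fold change above 1, E2 enzymes and deubiquitinases called were 3 and 4 for age in CTR, 4 and 4 for age in ELS, 2 and 5 for LPS in CTR, and 1 and 3 for LPS in ELS, which follows from the stricter rule. Deubiquitinases called for age in ELS were 11 with only the groups compared and 12 with no filter on low counts (18 as reported), those for LPS in ELS were 8 without the 3 mice with few detected genes (5 as reported), and those for ELS against CTR after PBS were 2 by the likelihood-ratio test (0 as reported). The causes were not tested.

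Without 1 P200 mouse in turn (25 fits), age in CTR gave 13 to 16 E2 enzymes and 12 to 14 deubiquitinases, age in ELS 13 to 15 and 13 to 19, LPS in CTR 4 to 5 and 8 to 9, and LPS in ELS 2 to 3 and 4 to 7. The ELS comparisons in adults and the differences of response stayed at 0 to 0. ELS against CTR at P9 stayed at 0 as well, but no P9 mouse was left out in turn. These fits could therefore hardly change the comparison at P9, and they varied only the adult side of the age comparisons.

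With the mouse number as replicate block in the P200 mice, LPS in CTR gave 5 E2 enzymes and 7 deubiquitinases and LPS in ELS 4 and 6, and the difference of response 0 and 0. Under the block Ube2e3 (adjusted p = 0.0943) and Otud1 (adjusted p = 0.11) were not called in CTR. Over all named members and alternatives, 2317 values kept their direction and side of the threshold, 76 lost the call and 2 gained it. Many of the values that stayed come from fits that left out a mouse of neither group compared, which could change little. Most lost calls were those of Ube2s for age in CTR and Usp35 for age in ELS (17 of 25 fits without 1 mouse), both with adjusted p just under the threshold.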
